A study of Mus musculus with 12 samples.

Results

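The data described here are the gene expression values of the normal adult mouse colon, from the 3 arrays labelled wild type among the 12 arrays of the series. All mice of the series were healthy males 12 to 16 weeks old, and the other 9 arrays, from mice without IL4I1, without LAO1 or without both, were not used. The labels name no strain, treatment or transgene for the wild type mice. They state that 4 mice of each genotype were selected at random, and they do not say whether an array held the RNA of 1 mouse or where along the colon the tissue was taken. The spread between the 3 arrays can therefore be biological, technical or both. With 1 group and no control there was no comparison of conditions and no test, and every statement describes these 3 arrays.

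The wall of the colon is built in layers. Its surface is a sheet of epithelial cells: absorptive colonocytes, which take up salt, water and the short-chain fatty acids made by gut bacteria, and goblet cells, which secrete the mucus that keeps bacteria off the tissue. Stem cells at the base of pits called crypts renew both. Below lie connective tissue with blood vessels and immune cells, including plasma cells that make IgA, the antibody of mucosal surfaces. Outermost are layers of smooth muscle with a nervous system of their own. RNA from whole tissue mixes all of these, so fewer cells of a type and less RNA per cell cannot be told apart.

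The arrays carried 22206 probes. Gene names were given for 19572 of them, which stood for 19505 genes, and 2634 probes had no name. Values are log2 signal, so a difference of 1 is a change of 2-fold between arrays. A probe's signal depends on the probe as well as on the transcript, so the order of genes below is an order of signals and not of transcript numbers, and no fold between genes is given. The 3 arrays had medians of 5.42, 5.43 and 5.48 over all probes. Pearson's correlation between arrays across probes was 0.990 for replicates 1 and 2, 0.984 for replicates 1 and 3 and 0.988 for replicates 2 and 3 (probes are not independent replicates). Replicate 3 had the narrower scale, with an SD over probes of 3.01 against 3.19 and 3.16, so that its dim probes lay higher and its bright probes lower. For that reason each difference between arrays described below was read again after quantile normalization, which gives the 3 arrays the same distribution. Where 3 values are given for a gene or list, they are those of replicates 1, 2 and 3 in that order.

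As a measure of background, the signals of 1447 genes of olfactory, vomeronasal and bitter taste receptors were used, families of sensory neurons and taste cells. Their mean signals ran from 2.06 to 7.01 with a median of 3.36. The 95th percentile of these genes on each array, 4.64, 4.77 and 5.08, is called the receptor level. Of the 19505 named genes, 10602 lay above it on all 3 arrays (54.4%), 7291 on no array and 1612 on 1 or 2 arrays. By construction about 5% of the receptor genes lie above the level on any 1 array. Of the receptor genes, 37 were above it on all 3, among them Olfr1393 with 7.23, 7.07 and 6.73, which was the highest of them. The brightest 5.0% of named genes were 976 genes with a mean of at least 12.21. From here on "above" means above the receptor level on all 3 arrays, "not above" means above it on fewer than 3, and "brightest class" means these 976 genes.

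**Figure D1:**
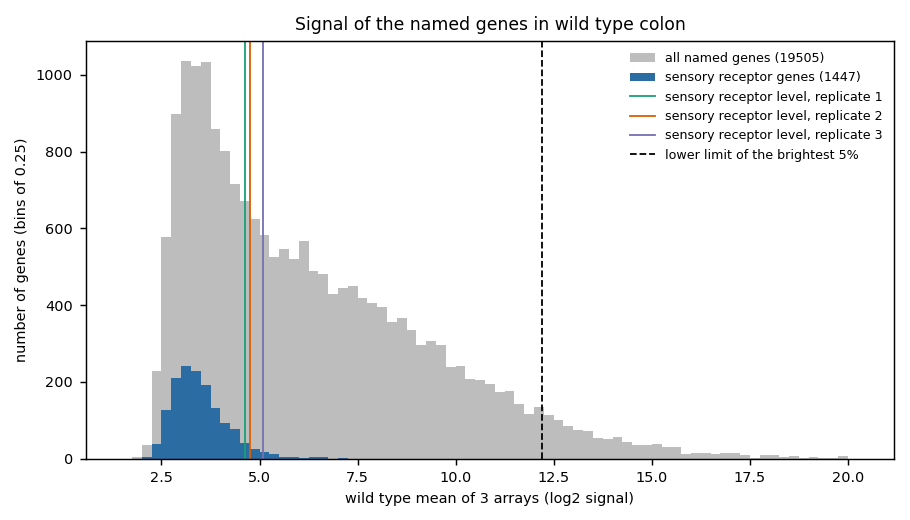
Number of named genes (vertical axis, in bins of 0.25) by the wild type mean log2 signal of 3 arrays (horizontal axis), with all 19505 named genes in grey and the 1447 sensory receptor genes in blue. Solid lines mark the receptor level on each array (4.64, 4.77 and 5.08) and the dashed line the lower limit of the brightest class (12.21): the receptor genes form a peak at the dim end, and the other genes trail off to the right of it without a gap.

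The highest signals belonged to genes of mucus, of the epithelial surface and of mucosal defence. Muc2, the gel-forming mucin of the colon's mucus layer, Clca1, a secreted goblet cell protein that processes this mucus, and Ceacam1, an adhesion molecule of the cell surface, stood at the maximum of the table, 19.93, on all 3 arrays. Their levels are therefore known only as at or beyond the top of the scale, and a spread of 0 there shows nothing about how constant they were. Just below lay Actb (cytoplasmic actin) with 19.92 ± 0.01 (SD, n = 3, as for each ± below), Pigr, the receptor that carries IgA across the epithelium, with 19.90 ± 0.01, and the translation factor Eef1a1 with 19.80 ± 0.03. Dmbt1, a secreted scavenger receptor that binds bacteria, was at 19.61 ± 0.04 and Ang4, a ribonuclease with antimicrobial activity, at 19.57 ± 0.07. The 30 highest genes also held Fcgbp, Retnlb, Zg16, Mptx1 and Muc13 (secreted or surface proteins of goblet cells and mucus), Lypd8, which binds bacterial flagella, and Cdh1, the epithelial cadherin. Gsdmc2, Gsdmc3 and Gsdmc4, members of the gasdermin C group, were at 18.87 ± 0.10, 18.97 ± 0.21 and 18.73 ± 0.15; they are near-identical copies, and how far their probes tell them apart is not known. Jchain, which joins IgA molecules, was the plasma cell gene among the 30, at 18.99, 18.31 and 17.31. Rmrp, the RNA part of a ribonuclease, Serinc3, Fth1 (ferritin heavy chain), B2m (the light chain of MHC class I), Eef2 and Ywhaz were among the rest.

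Goblet cell genes had the highest median of the 36 cell type lists. All 19 measured members were above the receptor level, where 54.4% of all named genes were, and 11 of the 19 were in the brightest class; the median of their means was 16.96 against 5.56 over all named genes. By the share in the brightest class, smooth muscle (69.6%) and absorptive colonocytes (59.1%) came before goblet cells (57.9%). Besides the genes at the maximum, Tff3, a trefoil peptide of mucus, was at 16.96, 17.10 and 16.82, and Agr2, a protein disulfide isomerase needed to fold mucin, at 17.09, 17.12 and 17.60. Spink4, a secreted protease inhibitor, gave 18.07, 18.14 and 18.26. These values lay within 0.51 of each other on the 3 arrays. The transcription factors of the lineage had lower signals, with Spdef at 10.18, 10.79 and 10.80 and Atoh1 at 9.85, 8.97 and 10.36. Ern2, a stress sensor of the endoplasmic reticulum found in mucus-secreting cells, was at 11.46, 11.28 and 10.30. Tpsg1, listed as a goblet cell gene, had the lowest mean of the list at 6.41 ± 0.26. Among mucins, Muc13 and Muc4, which span the membrane, were above at 18.70 ± 0.21 and 10.89 ± 0.25. Muc20 was not above (3.88, 4.03 and 4.02), and neither was the stomach mucin Muc5ac (3.34, 3.52 and 3.40). Of the glycosyltransferases that build mucin sugars, Gcnt3 gave 14.34, 15.62 and 14.78 and Fut2 gave 14.67, 14.45 and 14.25.

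Reg4 was the gene that differed most between the arrays of all 10602 above. It encodes a secreted lectin of goblet and enteroendocrine cells, and its signal was 16.24 on replicate 1 against 10.10 on replicate 2 and 9.80 on replicate 3, a range of 6.44 (6.08 after quantile normalization). Replicate 1 thus stood alone, while no other member of the goblet cell list differed by more than 1.39.

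Genes of absorptive colonocytes were likewise mostly bright. Of 22 measured, 21 were above and 13 were in the brightest class, with a median of 12.96. Slc51a, a subunit of the bile acid exporter, was not above (3.58, 3.69 and 5.18). Car1, a carbonic anhydrase of the large bowel, was at 17.60, 19.27 and 18.90, lowest on replicate 1. Guca2a, the precursor of the peptide guanylin that regulates salt and water secretion, was at 18.14, 17.88 and 18.03, and Krt20, a keratin of mature surface cells, at 16.61, 17.21 and 16.56. Lypd8 was among the least variable genes of the array, at 19.09, 19.08 and 19.08, though so close to the upper end of the scale that small differences may not show. Car4, a membrane-bound carbonic anhydrase, was at 16.34, 15.58 and 14.74. A list of the brush border, the carpet of microvilli, and of the cytoskeleton had 17 of 18 measured genes above and 11 in the brightest class. It also holds general cytoskeleton genes such as Actb, its highest member, so the counts are not those of microvilli alone. Others were Cdhr5 (17.11 ± 0.37), which links microvillus tips, Ezr (15.58 ± 0.61), which ties actin to the membrane, and Myo1d (16.19 ± 0.33), a myosin. Epithelial adhesion genes had 18 of 20 members above and 12 in the brightest class, led by Cdh1 (19.21, 19.17 and 18.63), Cdh17 (17.84, 17.98 and 17.69), a cadherin of the intestinal epithelium, and Krt8 (17.21, 17.58 and 17.47). Lama5 and Krt23 were the members not above. Claudins form the seals between epithelial cells. Cldn7 (13.59 ± 0.31) and Cldn15 (13.40 ± 0.11) were the highest of them, and Cldn4 gave 11.07, 11.59 and 9.55, the widest range of that list.

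**Figure D2:**
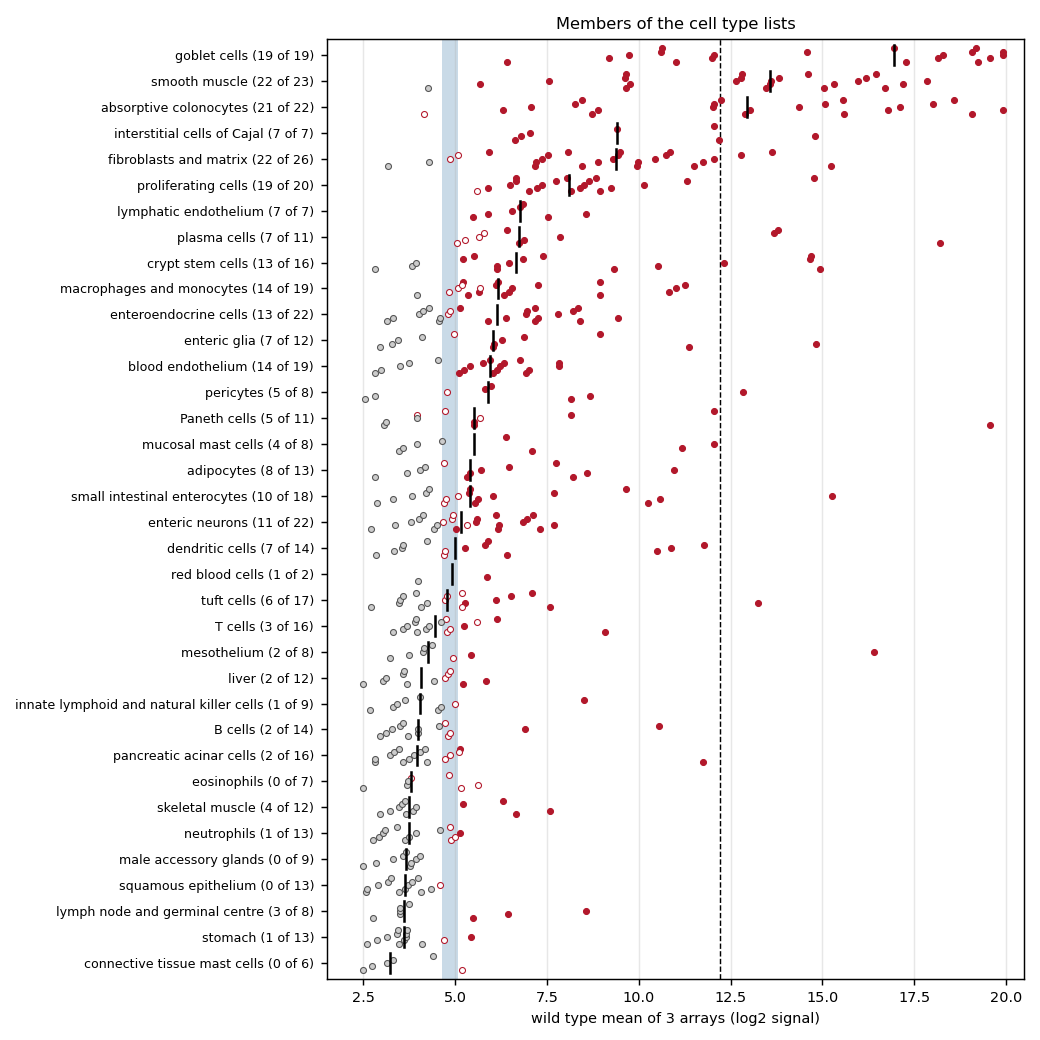
Wild type mean log2 signal (horizontal axis) of each measured member of the 36 cell type lists, ordered by the list's median (black bar), with the number above the receptor level and the number measured in brackets. Filled red points are above on 3 of 3 arrays, open red points on 1 or 2 and grey points on none; the blue band spans the receptor levels and the dashed line is the limit of the brightest class. Goblet cells, smooth muscle and absorptive colonocytes have most of their members on the right, and stomach, squamous epithelium, male accessory glands and connective tissue mast cells lie almost wholly at or left of the band.

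Transport genes showed which routes of the colon's salt and water handling gave a signal. For sodium and potassium, 14 of 18 genes were above. Slc9a3, the apical sodium-hydrogen exchanger, was at 17.02, 18.02 and 17.21, and Atp1b1, a subunit of the sodium pump, at 18.10, 17.66 and 17.61. The epithelial sodium channel has 3 subunits, and they differed: Scnn1a was at 14.48, 13.71 and 13.19, Scnn1b was above on 2 of 3 arrays only (4.88, 4.87 and 4.74), and Scnn1g on none (2.45, 3.02 and 2.81). The receptor for aldosterone, Nr3c2, was at 14.79, 14.77 and 14.53. Atp12a, the colonic hydrogen-potassium pump, was at 8.50 on replicate 1 and at 4.48 and 4.81 on replicates 2 and 3, where it lay below the receptor level. For chloride, bicarbonate and magnesium, 17 of 18 genes were above and 9 in the brightest class. These included the chloride-bicarbonate exchanger Slc26a3 (15.86, 15.54 and 15.33), the sulfate carrier Slc26a2 (14.98, 15.15 and 15.06), the chloride importer Slc12a2 (15.01, 14.89 and 14.86) and the chloride channel Cftr (14.62, 14.68 and 14.84). Best2 was the member not above. Of 11 aquaporins 5 were above, 45.5% against 54.4% of all named genes. The water channels Aqp4 (17.04, 16.27 and 16.60) and Aqp8 (11.98, 12.48 and 11.57) led them, and Aqp3 was not above (3.85, 3.33 and 3.62).

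Short-chain fatty acids are the main fuel of colonocytes. Of 14 measured genes of their uptake and sensing 6 were above (42.9%, against 54.4% of all named genes). The 3 in the brightest class serve uptake. Slc5a8, which carries butyrate with sodium, was at 16.14, 15.44 and 16.03, the monocarboxylate carrier Slc16a1 at 13.10, 12.92 and 12.59, and its partner Bsg at 16.93, 16.87 and 16.64. Every other member of the list had a mean of 8.61 (Gpr35) or lower. The receptors that sense short-chain fatty acids were dim too. Ffar2 was above (7.23, 6.65 and 6.36), whereas Ffar3 was above on 2 arrays (4.37, 5.66 and 5.37) and Hcar2 on none (4.61, 4.30 and 5.02). All 19 genes of butyrate and fatty acid oxidation were above, from Hadha (14.34, 14.33 and 14.00), the alpha subunit of the mitochondrial trifunctional protein, down to Ppara (7.03 ± 0.55). All 29 genes of oxidative phosphorylation were above as well, 16 in the brightest class, with Atp5a1 at 17.15, 16.99 and 17.09. Sulfide from bacteria and hydrogen peroxide are detoxified at the colon's surface. The list for this also holds genes of hydrogen peroxide production, such as Duoxa2, and all 22 measured genes of it were above. Ethe1, a mitochondrial sulfur dioxygenase, was at 14.90, 14.66 and 15.22, Gpx2, the gut glutathione peroxidase, at 14.74, 14.81 and 14.37, and Txn1 at 16.95, 16.90 and 17.30. Duoxa2, which matures the hydrogen peroxide producing oxidase Duox2, was lowest on replicate 3, at 10.05, 10.31 and 8.81.

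Il4i1 and Lao1, the L-amino acid oxidases that the series deleted, release ammonia and hydrogen peroxide from amino acids. Lao1 was not above on any array in wild type colon, at 3.24, 3.12 and 2.64, close to the receptor genes' median of 3.36. Il4i1 had no named probe and was not analysed here. Of 22 genes of tryptophan and amino acid oxidation, 10 were above, 45.5% against 54.4% of all named genes. Maoa, which oxidizes serotonin, was the highest at 13.27, 13.19 and 12.98, followed by Hao2 (11.67, 11.87 and 12.54), a peroxisomal hydroxyacid oxidase. Tph1, which makes serotonin in enteroendocrine cells, was at 8.74, 7.79 and 8.11. Ido1, which opens the tryptophan ring, was at 3.40, 5.93 and 7.91: below the receptor level on replicate 1 and above it on the other arrays.

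Drug and toxin metabolism was led by Cyp2c55 (15.72, 16.82 and 16.19), a cytochrome P450, Abcb1a (15.79, 16.21 and 15.68), the efflux pump P-glycoprotein, and Abcc3 (15.95, 15.76 and 15.40). Of 38 genes, 30 were above. Cyp1a1, Cyp1b1 and Abcc2 were above on no array. In lipid handling, Hmgcs1 of the cholesterol pathway (16.72, 16.35 and 15.49) and Fabp2 (14.65, 15.57 and 15.53) were bright, but Fabp1, Fabp6, Apoa1, Mttp, Abcg5, Abcg8 and Npc1l1 were above on no array. Among carriers of nutrients, Slc6a8 for creatine (17.18, 16.62 and 15.71) and Slc2a1 for glucose (15.19, 15.96 and 14.05) were the highest; both were lowest on replicate 3.

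**Figure D3:**
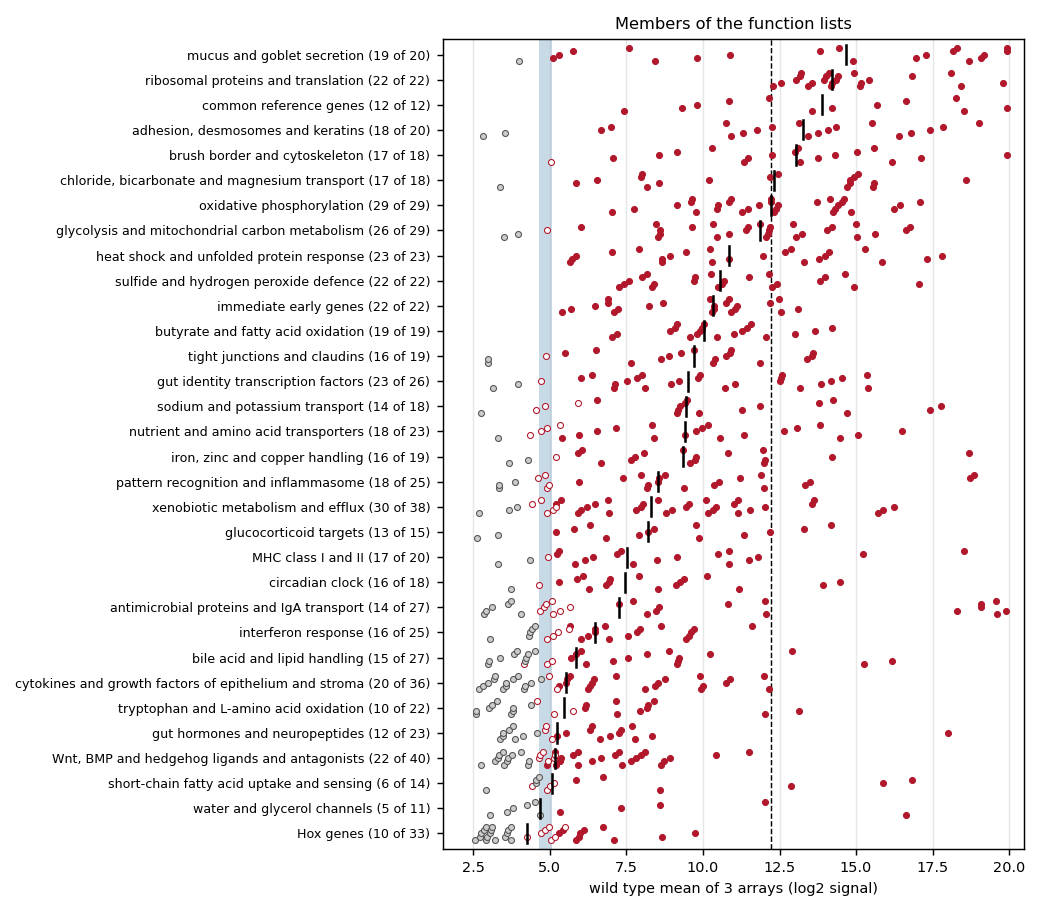
Wild type mean log2 signal (horizontal axis) of each measured member of the 32 function lists, ordered by the list's median (black bar), with the number above the receptor level and the number measured in brackets. Points, blue band and dashed line are as for the cell types. All measured members of 7 lists lie right of the band, among them oxidative phosphorylation (29 of 29) and the heat shock list (23 of 23), while 10 of 33 Hox genes and 5 of 11 water channels do.

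The crypt compartment had signals across the scale. Of 16 stem cell genes 13 were above. Lgr5, the receptor that marks crypt stem cells, was above but dim, at 5.97, 6.15 and 6.30, while its relative Lgr4 was at 14.67, 14.64 and 14.67. Ascl2 and Smoc2, further stem cell genes, were above on no array (2.99, 2.63 and 2.83 for Ascl2). Sox9 gave 12.81, 11.83 and 12.33, and Axin2, a target of Wnt signalling, 8.16, 7.02 and 6.97. Of 20 proliferation genes 19 were above, with the cycling cell marker Mki67 highest at 15.36, 14.77 and 14.20; Cdk1 was above on 2 arrays. Enteroendocrine cells, the hormone-producing cells of the epithelium, had 13 of 22 genes above (59.1%, against 54.4% of all named genes). None was in the brightest class. Gcg, the precursor of GLP-1, was at 8.88, 7.83 and 8.33, Pyy, peptide YY, at 8.22, 6.84 and 8.31, and Chgb, a granule protein, at 8.40 ± 0.87. Insl5, a hormone of the distal colon, was at 7.41, 5.46 and 6.25. Tuft cells, sensory cells of the epithelium, had 6 of 17 above, among them Hpgds (8.10, 7.36 and 7.26), Dclk1 (6.99, 7.46 and 6.82) and Trpm5 (5.15, 5.22 and 5.41); Il25 and Sh2d6 were above on no array.

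Transcription factors of the gut were largely above. Of 26 genes of gut identity, 23 were above and 9 in the brightest class. Klf5 (15.38 ± 0.40), Tcf7l2 (15.37 ± 0.24) and Hnf4a (14.55 ± 0.58) were the highest, and Cdx2, the intestinal homeobox factor, was at 12.97, 12.99 and 13.55. The members not above were factors of foregut and small bowel: Gata4 was above on 1 array (4.55, 5.16 and 4.39), and Pdx1 and Sox2 on none. Of 33 Hox genes, which carry position along the body axis, 10 were above. Hoxa3 (9.75 ± 0.24) and Hoxa10 (8.65 ± 0.36) were the highest, and Hoxa13, a gene of the hindgut, was at 5.86, 6.31 and 5.80. Hoxd13 was above on no array. Hoxb13, the hindmost gene of its cluster, was at 6.20 on replicate 1 and at 2.71 and 3.82 on the other arrays. Of the Wnt, BMP and hedgehog list 22 of 40 were above, 55.0% against 54.4% of all named genes. Bmp5 (11.63, 11.83 and 11.05) and the BMP antagonist Grem1 (11.55, 10.08 and 9.65) were the highest, both products of the stroma.

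Smooth muscle gave the strongest signal outside the epithelium. Of 23 genes 22 were above and 16 in the brightest class, with a median of 13.58. Tpm1 (17.49, 17.97 and 18.11), Acta2 (16.88, 17.31 and 17.37), Cnn1 (16.20, 17.02 and 16.93), Myh11 (16.11, 16.79 and 16.46) and Actg2 (15.67, 16.31 and 16.58) are parts or regulators of its contractile filaments. Each of these 5 was lowest on replicate 1. The list's mean over the members above was 12.84, 13.44 and 13.26. Myocd, the coactivator that drives the smooth muscle program, was above on no array (4.25, 4.15 and 4.34). The pacemaker cells of the gut wall, the interstitial cells of Cajal, had all 7 genes above, including Ano1 (15.53, 14.52 and 14.33), a chloride channel, and Kit (12.23, 12.09 and 11.85), both of which other cells of the wall also use. Enteric neurons had 11 of 22 genes above, a share slightly below the 54.4% of all named genes, and none in the brightest class. Vip (8.06, 7.76 and 7.22), Penk (6.87, 7.64 and 7.42), Snap25 (7.36, 6.72 and 7.30) and Nos1 (5.51, 5.97 and 5.21) were among those above. Chat, which makes acetylcholine, was above on no array (2.85, 2.91 and 2.33). Glial genes were split. Erbb3 (10.99, 11.77 and 11.32) and Gfap (6.12, 5.69 and 6.27) were above, and the defining genes Sox10, S100b and Foxd3 were above on no array.

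Fibroblast genes had 22 of 26 members above. Col3a1 was at 13.80, 13.90 and 13.16, the small proteoglycans Ogn and Dcn at 12.77, 12.91 and 12.70 and at 11.86, 12.12 and 11.29, and Cd81, a tetraspanin of many cell types, was the highest at 15.96, 15.10 and 14.61. Pi16 and Mfap5 were above on no array. Blood endothelium had 14 of 19 above with no member in the brightest class, led by Kdr (8.37, 7.76 and 7.34) and Eng (8.09, 8.29 and 7.13). All 7 lymphatic genes were above, among them Lyve1 (7.03, 7.17 and 6.36), Prox1 (6.90, 6.58 and 6.78) and Mmrn1, whose value of 7.95 on replicate 1 stood apart from 5.84 and 5.82. Rgs5 led the pericytes at 12.29, 13.33 and 12.85.

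Immune cell lists ranged from bright to at the receptor level. Plasma cell genes had the highest signals: besides Jchain, Xbp1 (14.13, 13.85 and 13.35) and Sdc1 (13.91, 13.53 and 13.57) were in the brightest class, although epithelial cells use these too, and Mzb1 was at 7.92, 6.35 and 6.31. Macrophage genes had 14 of 19 above, with Ctss (11.78, 10.79 and 11.23), Lyz2 (11.24, 10.96 and 10.25), Csf1r (9.95, 8.85 and 8.01) and Mrc1 (9.74, 8.76 and 8.36). The MHC class II genes H2-Aa (11.65, 11.73 and 11.98) and H2-Ab1 (10.99, 10.83 and 10.77) led the dendritic cell list, but the defining genes Flt3, Zbtb46, Clec9a and Xcr1 were above on no array. T cells had 3 of 16 above: Cd4 (9.26, 9.03 and 8.93), Cd28 and Cd2. The chains of their receptor complex were not, with Cd3e above on 2 arrays (4.90, 4.79 and 4.61) and Cd3d, Cd3g and Cd247 on none. B cells had Blnk (10.52, 10.67 and 10.44) and Fcer2a (7.07, 6.60 and 7.04) above of 14, and Ms4a1, Cd79b and Pax5 on no array. Natural killer and innate lymphoid cells had Id2 alone of 9, a gene of many cell types. Of 13 neutrophil genes Mpo was above, at 5.13 ± 0.23, and S100a8, Lcn2, Ltf and Camp were above on no array.

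Of 8 genes of mucosal mast cells 4 were above, a share near that of all named genes, and 4, Gata2 among them, were above on no array. Kit was among those above, which the interstitial cells of Cajal also express. The proteases Mcpt1 (12.30, 9.68 and 11.58) and Mcpt2 (8.47, 6.07 and 6.73) and the carboxypeptidase Cpa3 (7.16, 5.54 and 6.46) were above, and each was highest on replicate 1 and lowest on replicate 2. Mcpt1 and Mcpt2 are close relatives, and their probes may share transcripts. Of 6 genes of connective tissue mast cells none was above on all 3 arrays; Mcpt4 was above on 2 (5.73, 4.67 and 5.15), and Cma1, Tpsb2 and Tpsab1 were above on none. Eosinophils had 0 of 7 above, and Il5ra (6.75, 5.55 and 4.54), Ccr3, Siglecf and Alox15 were above on 1 or 2.

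The antimicrobial list was uneven. Pigr, Dmbt1, Ang4, Lypd8 and Retnlb were among the 30 highest genes. Of the list 14 of 27 members were above, 51.9% against 54.4% of all named genes. The lectins Reg3b (3.70, 6.74 and 4.72) and Reg3g (3.83, 6.07 and 4.49), which inflamed or colonized gut makes in quantity, passed the level on replicate 2 alone, and Nos2 (3.96, 5.99 and 5.37) on replicates 2 and 3. S100a8, Lcn2, Ltf, Camp and Bpifb1 were above on no array. Of 36 cytokines and growth factors 20 were above, 55.6% against 54.4% of all named genes. The chemokines Ccl6 (12.05, 11.77 and 12.65) and Ccl28 (10.59, 10.79 and 11.27) and the mast cell growth factor Kitl (12.00, 11.74 and 12.22) were high. The inflammatory cytokines Tnf, Il6, Ifng, Il17a, Il22 and Il10 were above on no array. Of sensors of microbes, Naip5 (12.99, 13.64 and 13.84) and Naip6 (13.21, 13.42 and 13.40), which detect flagellin, were in the brightest class, and are close copies. Tlr4 was at 11.49, 12.88 and 11.62 and Tlr3 at 11.72, 11.86 and 12.09. Tlr5 was above on 2 arrays, at 4.76, 4.77 and 4.99 around the receptor level, and Tlr9 and Nlrp3 on none.

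Lists of other tissues were read to check the samples against their label. None of 13 genes of squamous epithelium, the lining of the anal canal, was above, and none of 9 genes of the male accessory glands. Of 13 stomach genes Gkn2 was above (5.22, 5.29 and 5.74). Of 12 liver genes Fgb and Cyp2e1 were above, each with a mean under 6, and albumin (Alb) was above on 1 array. Of 16 pancreatic acinar genes 2 were above: Cela2a at 5.12 ± 0.23, and Clps, colipase, at 11.44, 12.57 and 11.25. The acinar enzymes Prss2, Cpb1, Ctrb1 and Rnase1 were above on no array. Of 12 genes of skeletal muscle 4 were above, Ckm the highest at 7.02, 7.49 and 8.26, while the fast myosins Myh1, Myh2 and Myh4 were above on no array. Of 18 genes of small intestinal enterocytes 10 were above, about the share of all named genes: Fabp2 at 14.65, 15.57 and 15.53, then Slc5a1 (10.57 ± 0.23), Apob (10.24 ± 0.53), Alpi (9.65 ± 0.81), Anpep (7.68 ± 0.68) and 5 with means of about 6 or less. Another 5, Lct, Mme, Fabp6, Apoa1 and Mttp, were above on no array. Of 13 adipocyte genes 8 were above (61.5%, against 54.4% of all named genes). Fabp4 was at 8.03, 8.89 and 8.85 and Adipoq at 4.76, 5.58 and 5.87, while Plin1 and Lep were above on no array.

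The 3 arrays agreed closely for most genes. Among the 10602 genes above, the median SD was 0.29 and the median range, highest less lowest array, was 0.54; 4698 of them (44.3%) had a range under 0.5. A range over 1 was found in 1320 (12.5%), over 2 in 60 and over 3 in 13. Of the 1320, 908 also exceeded 1 after quantile normalization. Leaving out an array gave 541 genes without replicate 1, 908 without replicate 2 and 332 without replicate 3, each over a range of 2 arrays. In the brightest class 172 of 976 had a range over 1. The array farthest from the middle value in the 1320 genes was most often replicate 3 on the low side (574), then replicate 1 on the high side (305). After quantile normalization 1128 genes had a range over 1, and the order was replicate 3 high (317), replicate 3 low (293) and replicate 1 high (200), so the excess of low values on replicate 3 did not remain. The steadiest genes below the top of the scale included Ppox, an enzyme of heme synthesis, Idh3g of the citric acid cycle and Thra, a thyroid hormone receptor. Their steadiness depended on the scaling: the ranges of Ppox, Idh3g and Thra were 0.02 or less as deposited and 0.23, 0.24 and 0.28 after quantile normalization. Among genes commonly used as references, Gapdh was at 16.61, 16.66 and 16.64 and Hprt at 9.82, 9.66 and 9.97, ranges of 0.05 and 0.31 that became 0.33 and 0.55 after quantile normalization, while Gusb (8.30, 7.24 and 6.69), Sdha (11.41, 11.09 and 10.09) and B2m (18.08, 18.28 and 19.25) had ranges over 1.

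The means of some lists differed between the arrays. Of 56 lists with at least 3 members above, 16 had a mean over those members that differed by more than 0.5 between arrays. For the mean over all 10602 genes above the difference was 0.19, but a mean over few genes can vary more. The 16 lists had from 3 (lymph node and germinal centre) to 23 (heat shock) members above, so 1 gene can move a short list. In the lymph node list Cxcl13 was at 7.55, 5.43 and 6.33. In those 16 the array highest as deposited stayed above the array lowest as deposited when quantile normalization was applied. It did not always stay the extreme. Smooth muscle was then highest on replicate 3 (12.73, 13.38 and 13.41), and the lymph node list was lowest on replicate 2 (7.21, 6.60 and 6.65). For 5 of the 16 (fibroblasts, Wnt, BMP and hedgehog genes, blood endothelium, the clock and the interstitial cells of Cajal) the difference was then under 0.5. After quantile normalization 15 lists differed by more than 0.5. Among them were lists outside the 16: MHC class I and II (0.56), ribosomal proteins (0.55), skeletal muscle (0.54) and glucocorticoid targets (0.51). With 1 array left out the number of lists over 0.5 was 7 without replicate 1, 11 without replicate 2 and 8 without replicate 3. The 3 arrays carry the same label, and what set them apart was not tested.

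**Figure D4:**
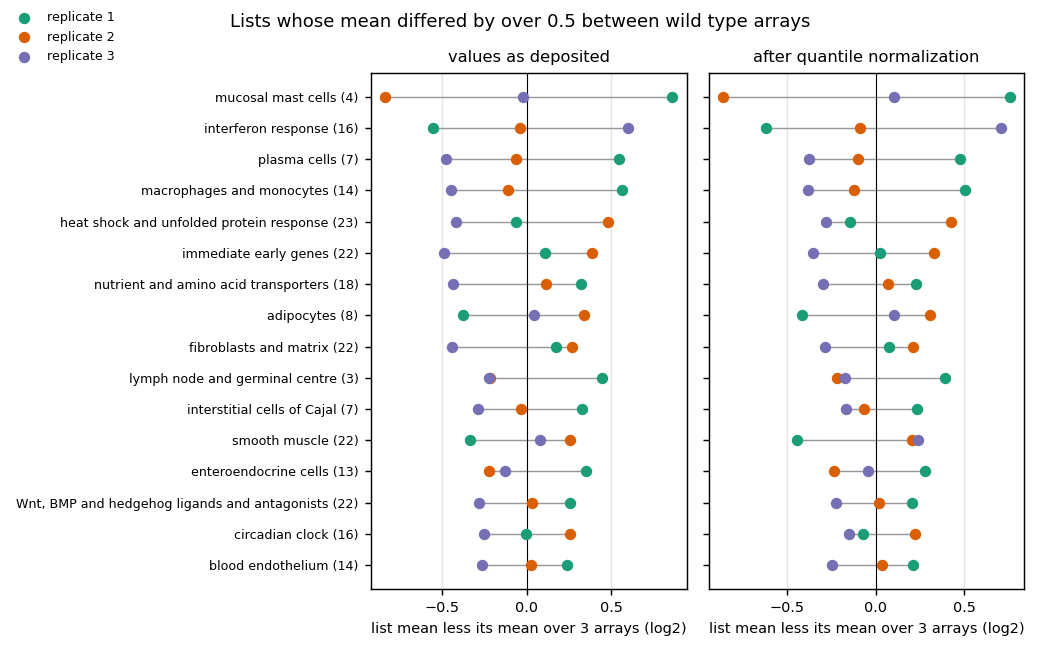
Mean log2 signal of the members above the receptor level (number in brackets) on each wild type array, less the list's mean over the 3 arrays (horizontal axis), for the 16 lists whose array means differed by over 0.5, as deposited on the left and after quantile normalization on the right. Mucosal mast cells (10.04, 8.35 and 9.15 as deposited) and the interferon response (7.35, 7.86 and 8.50) have the widest spread. In each of the 16 lists the array highest on the left stays above the array lowest on the left in the right panel, though the third array can pass either.

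Heat shock genes were highest on replicate 2. These genes encode chaperones that refold proteins, and heat or other stress switches them on within minutes through the factor HSF1, which binds heat shock elements in their promoters. Hspa1b was at 8.73, 12.79 and 9.38 and Hspa1a at 9.04, 12.59 and 9.08, ranges of 4.06 and 3.55 (4.09 and 3.59 after quantile normalization), with replicates 1 and 3 close to each other. Dnajb1, a co-chaperone of the Hsp70 proteins, followed at 9.17, 10.76 and 8.42, Hsph1 at 10.19, 11.91 and 10.43, Hsp90aa1 at 13.83, 14.90 and 13.66 and Bag3 at 9.03, 9.74 and 8.01. All 23 measured genes of the heat shock and unfolded protein list were above, and 13 had a range over 1. The chaperones of the endoplasmic reticulum in the list did not share the pattern: Calr (18.47, 17.55 and 17.36), Hspa5 (17.76, 17.28 and 16.93) and Hyou1 (14.80, 13.83 and 13.31) were highest on replicate 1. The promoters of Hspa1a and Hspa1b are shown because these 2 genes had the widest ranges of the list. The 250 bases before each start in RefSeq (GRCm38.p6) are given 5′ to 3′, both from the minus strand of chromosome 17, chr17:34972157-34972406 for Hspa1a and chr17:34959239-34959488 for Hspa1b, with capitals marking each match to GAANNTTC, the core of the heat shock element, in which N is any base.
Hspa1a: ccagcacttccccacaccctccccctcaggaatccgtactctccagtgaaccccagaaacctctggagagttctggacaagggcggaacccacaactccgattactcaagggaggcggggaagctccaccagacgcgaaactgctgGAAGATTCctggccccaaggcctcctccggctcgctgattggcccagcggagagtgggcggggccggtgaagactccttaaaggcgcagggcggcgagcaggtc
Hspa1b: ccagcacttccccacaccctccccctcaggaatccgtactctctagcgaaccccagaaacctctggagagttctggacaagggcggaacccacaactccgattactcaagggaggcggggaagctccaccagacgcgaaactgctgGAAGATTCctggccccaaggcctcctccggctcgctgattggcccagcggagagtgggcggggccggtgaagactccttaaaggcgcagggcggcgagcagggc
The promoters agree at 247 of 250 bases and hold the element once each, at the same place. The genes are near-identical copies, so the 2 probes may report each other's transcripts and are not independent evidence. The letters GAANNTTC read the same on both strands. They occur in 5 of 24 promoters of the heat shock list (20.8%) and in 6.69% of all 32851 promoters in the table (a gene can have several). Besides Hspa1a and Hspa1b the matching genes were Hspb1, Hspd1 and Hspe1. The promoters of Hspa1a and Hspa1b are near copies, so the 5 matches are not all separate. A match describes the letters and is no evidence of binding.

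Immediate early genes, which cells switch on within minutes of a stimulus, overlapped that pattern in part. All 22 were above, 11 had a range over 1, and the list's mean was 9.60 and 9.87 on replicates 1 and 2 and lowest on replicate 3, by 0.87 against replicate 2. Klf6 stood out on replicate 2 at 12.16, 14.87 and 12.32. Egr1 (13.15, 13.92 and 10.55) and Dusp1 (12.31, 13.71 and 10.56) were low on replicate 3, and Ccn1 (11.61, 11.22 and 9.46) as well. Fos itself was highest on replicate 1, at 11.44, 9.46 and 10.14. Each of these orders of highest and lowest array was the same after quantile normalization.

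Interferon response genes were highest on replicate 3 and lowest on replicate 1. Interferons lead cells to make proteins that attack intracellular microbes, among them the GTPases of the IRG and GBP families. Iigp1 was at 5.12, 7.62 and 9.93, the second widest range of all genes above (4.81). Irgm1 was at 8.38, 9.58 and 10.64, Irgm2 at 8.52, 9.61 and 10.68, Igtp at 5.06, 6.51 and 7.18, Gbp2 at 6.79, 8.07 and 8.94 and Tgtp2 at 6.68, 7.83 and 10.05. The chemokine Cxcl9 lay below the receptor level on replicate 1 and above it on the others (3.97, 5.88 and 6.99). Irf1, a factor induced by interferon gamma, was at 11.59, 10.78 and 12.39. The MHC class I and II list had 17 of 20 genes above and array means of 9.12, 9.25 and 9.52. As deposited this was a smaller difference than in the 16 lists. After quantile normalization the means were 9.07, 9.21 and 9.63, a difference of 0.56 that was larger than in some of the 16. Some members had their highest value on replicate 3, with Tap1 at 8.44, 9.12 and 9.91, Psmb8 at 7.21, 7.45 and 8.49, B2m at 18.08, 18.28 and 19.25 and H2-K1 at 14.92, 14.96 and 15.78. The class II gene H2-Eb1 (10.84, 10.23 and 10.41) was highest on replicate 1, and so was H2-Ab1 (10.99, 10.83 and 10.77) as deposited, though after quantile normalization it was highest on replicate 3. Oasl2 (8.96, 9.44 and 9.98) and Mx1 (7.53, 7.68 and 8.34) had the order of Iigp1 too. Other members did not: Isg15 (4.26, 4.54 and 4.41), Ifit1 (4.38, 4.03 and 4.54) and Rsad2 (4.52, 4.56 and 4.45) were above on no array, and Ifit3 (5.95, 5.89 and 6.21) and Oas1a (6.81, 6.76 and 6.82) differed by 0.32 or less. Ido1 shared the order of Iigp1.

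Genes of plasma cells, macrophages and mast cells were highest on replicate 1. Plasma cell genes had array means of 11.04, 10.44 and 10.02, and Irf4, a factor of the lineage, was at 7.57, 6.98 and 5.65. Of the members above on 1 or 2 arrays, Pou2af1 was at 7.13, 5.49 and 4.36 and Derl3 at 6.88, 5.51 and 4.94. Macrophage genes had means of 8.13, 7.46 and 7.13; Ly6c2, a monocyte surface protein, was at 12.22, 11.02 and 9.76, and the complement genes C1qa, C1qb and C1qc were lowest on replicate 3, as was Csf1r. Mucosal mast cell genes had means of 10.04, 8.35 and 9.15. Cxcl13, the chemokine that draws B cells into follicles, was at 7.55, 5.43 and 6.33, while 9 of 14 B cell genes, Ms4a1 among them, were above on no array. Smooth muscle genes were lowest on replicate 1 (12.84, 13.44 and 13.26), and so were adipocyte genes (6.92, 7.63 and 7.34). Fibroblast genes were lowest on replicate 3 (10.07, 10.16 and 9.45).

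The clock genes differed in both directions. In the circadian clock Arntl and Npas2, with Clock, activate the Per and Cry genes, whose proteins feed back on them, so their transcripts peak at opposite times of day. Arntl was at 9.23, 8.59 and 7.73 and Npas2 at 10.01, 9.40 and 7.91, both highest on replicate 1 and lowest on replicate 3. Per2 was at 6.12, 7.50 and 7.17 and Per3 at 7.92 ± 0.52, both lowest on replicate 1, as was the clock output gene Dbp (9.07, 9.43 and 9.61). Bhlhe40, a repressor that also responds to stimuli, was high on replicate 2 at 13.43, 14.89 and 13.48. The array named here as highest or lowest for each gene was the same after quantile normalization. Of 18 clock genes 16 were above, and the E-box CACGTG, the letters that the clock activators bind, was found in the 250 bases before the start in 5 of 16 clock genes with a promoter in the table (Bhlhe41, Ciart, Cry1, Per1 and Tef) and in 6.86% of all genes with one. The share was 4 of 21 genes of the heat shock list and 3 of 17 immediate early genes. The labels give the light cycle of the animals' room but no time of sampling.

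Further genes with ranges among the widest were highest on replicate 1. Tgm3, a transglutaminase, was at 10.18, 6.10 and 7.44, Sval1 at 13.52, 9.92 and 11.08, B3gnt7, a glycosyltransferase, at 10.61, 7.63 and 8.27, and Gal3st2 at 8.09, 5.02 and 6.42. Serpina3n (12.15, 10.71 and 8.58) and Capn13 (12.36, 10.32 and 9.05) were lowest on replicate 3. Kcnk5, a potassium channel, was at 10.74, 8.02 and 9.64, with replicate 2 the array farthest from the others.

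**Figure D5:**
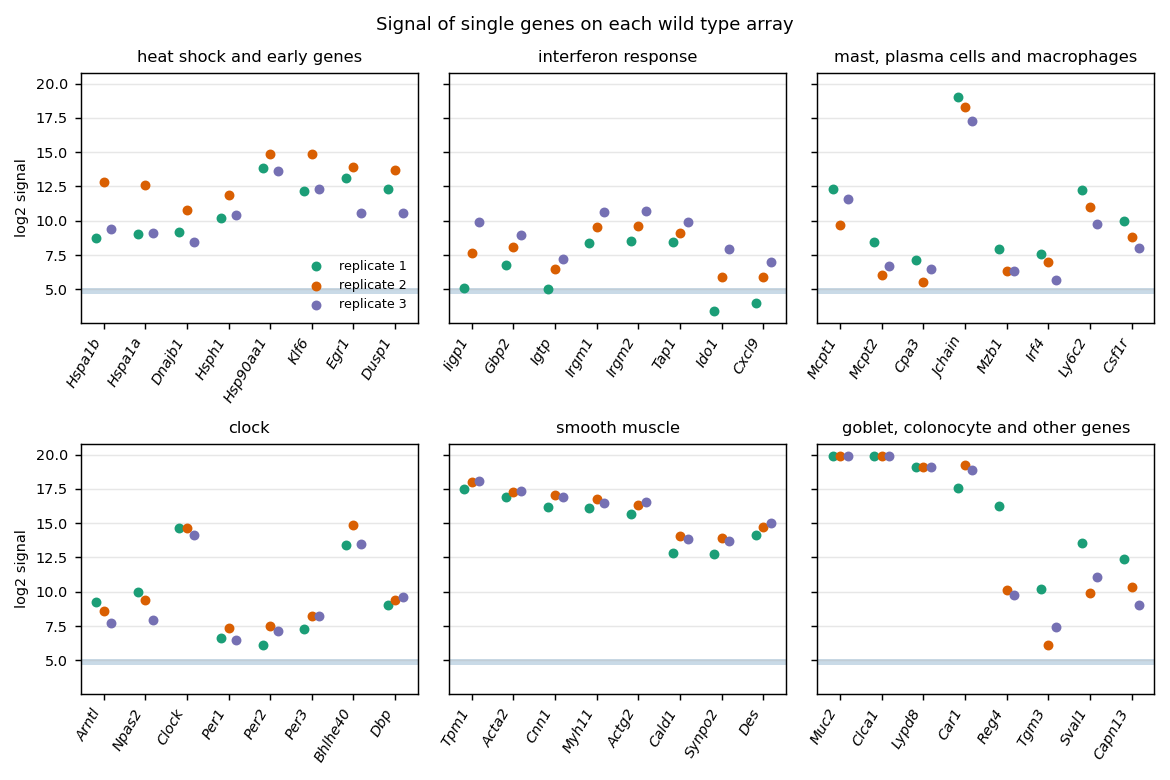
Log2 signal (vertical axis) of 48 genes in 6 groups on wild type replicates 1 (green), 2 (orange) and 3 (purple), with the blue band spanning the receptor levels of the 3 arrays. Hspa1a and Hspa1b stand out on replicate 2, Iigp1 and Ido1 are lowest on replicate 1 and highest on replicate 3, the mast cell proteases are lowest on replicate 2, and Muc2 and Clca1 sit at the table's maximum of 19.93 on every array.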

How the data were processed

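The authors deposited log2 expression values, 1 per probe and array, made from Affymetrix arrays; the submitters' processing notes name the Transcriptome Analysis Console, and its version, normalization and genome build are not given in the sources used here. The RNA was prepared with ISOGEN II, and 6 ug of it went into biotin labelling, per the labels' protocols. Only the 3 arrays labelled wild type were read, without further scaling. Arrays give no read depth, so their number limits the precision.

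Probes were named through the platform annotation; each of the 19572 named probes had 1 symbol. For the 55 genes with several probes, which can disagree (Rbm4: 10.65 and 5.75), the probe with the highest wild type mean was kept. Mean, SD and range were computed per gene in Python 3.11.15, and no test was made. The calculation was tested on simulated data.

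The 68 lists hold 1244 gene names, of which 1122 were measured. The lists were chosen with earlier results of these data known. A rule selected genes to name: the 30 highest, the 15 with the largest range and the 15 with the smallest SD. It also took each list's 5 highest members, its members not above where 3 or fewer, its 3 largest ranges over 1, Il4i1 and Lao1. Not all of these are named in the text, for example Lmo7 of the highest genes and Gm4841 of the largest ranges. Other members were chosen after their values were seen. Promoter sequences are from RefSeq (GRCm38.p6), matched by symbol.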

Additional observations from a re-analysis of the deposited data

Results flagged for a closer look

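The 2634 probes without a gene name lay outside every description above, and many carried signal. Of these, 1168 (44.3%) were above the receptor level on 3 of 3 arrays, against 54.4% of the named genes. Their mean signal reached that of the brightest class in 174, and 7 stood at the table's maximum of 19.93 on all 3 arrays. What they measure is not known here.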

How the results depend on the processing

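The 10602 genes above became 8498 with the 99th percentile of the receptor genes and 11586 with the 90th, and between 10602 and 11379 in the other settings for named genes; over all probes, named or not, 11800 were above. The brightest class shared at least 948 of its 976 genes, and the 30 highest at least 28, with each alternative run (an array left out, quantile normalization, equal medians, the mean over a gene's probes, the median of arrays). The 1320 genes with a range over 1 became 60 for a range over 2 and 2131 without the filter on dim genes, and 332 to 908 with an array left out, where a range spans fewer arrays. The 16 lists that differed by over 0.5 between arrays became 7 to 11 with an array left out. After quantile normalization they became 15, some of them other lists. Genes with a range over 1 for which replicate 3 was both lowest and the array farthest from the middle value numbered 574 as deposited and 293 after quantile normalization, an alternative chosen after seeing the data. None of the 16 differences between lists changed sign in the settings that kept both arrays. No paired analysis was possible because a single group was described and no test was made. Levels at the table's maximum and near the receptor level are bounds rather than measurements.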

Other observations

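Gene families were also read by the start of the symbol, a grouping chosen after the values were seen. Core histone genes, which package DNA and are made mainly in dividing cells, were among the brightest families: 49 of 52 were above and 31 in the brightest class. As deposited, their mean also differed most between the arrays among the 21 families with 5 or more members above, but after quantile normalization that of the dim beta-defensins differed more (0.88 against 0.76). A range over 1 was found in 26 of the 49. Their mean was 13.61 on replicate 1, 13.16 on replicate 2 and 12.56 on replicate 3 (13.50, 13.11 and 12.74 after quantile normalization). In 39 of the 49 replicate 1 was highest and replicate 3 lowest. H4c1 was at 17.87, 17.55 and 17.07, and H2ac24 at 16.72, 15.43 and 14.62. Histone genes are near-identical copies, and H3c14 and H3c15 have equal values on all 3 arrays, so the 49 are not separate measurements.

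Of 74 ribosomal protein genes 70 were above and 47 in the brightest class, and of 97 genes of the respiratory chain and ATP synthase 85 were above. Of 361 solute carriers 203 were above (56.2%, against 54.4% of all named genes), led by Slc9a3. In some tissue-specific families most members were not above: 27 of 99 cytochromes P450, 8 of 49 keratins and 6 of 36 interleukins were. The 24 of 1091 olfactory receptors above are few by construction, because the receptor level is drawn from that family and the other sensory receptors. As a check of the labelled sex, the Y-linked genes Kdm5d (8.58 ± 0.27), Uty (9.64 ± 0.36) and Eif2s3y (9.78 ± 0.16) were above. Usp9y was above on no array, and Sry on 2 (4.71, 4.68 and 5.60). Some receptor genes were above as well, and Vmn1r100 and Vmn1r148 shared equal values of 6.15, 6.90 and 6.73. In all, 60 genes in 29 sets had values equal to those of another gene on all 3 arrays. Genes with no spread between arrays, such as Muc2, Clca1 and Ceacam1 at the table's maximum, were left out of this count.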
